A study of Mus musculus with 12 samples.

Results

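Bhlhe40, Bhlhe41 and Ciart encode repressors of CLOCK-BMAL1 activity, and their expression was followed in the kidneys of 12 male C57BL/6J mice given cannabidiol (CBD), a main cannabinoid of the Cannabis sativa plant, or its vehicle. The 3 genes were taken by symbol from 57180 counted Ensembl genes, and all 3 passed the filter on low counts, which kept 17163 genes. They were chosen by earlier results of these data, including their differences between the doses and the control, so those differences are given here as a description and not as evidence. The mice were 60 days old at the start and lived in a cycle with 12 h of light. They received daily intraperitoneal injections for 28 days: saline with 2% Tween 80 in the control group (Control), and the same vehicle with CBD at 10 mg/kg b.w. (10CBD) or 20 mg/kg b.w. (20CBD). Each group held 4 mice, and each mouse gave 1 RNA-Seq library of whole kidney.

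In the circadian clock, BMAL1 pairs with CLOCK or NPAS2 and switches on genes that carry an E-box in their regulatory DNA. BHLHE40 and BHLHE41, also known as DEC1 and DEC2, are basic helix-loop-helix proteins with an Orange domain that bind E-boxes themselves and repress transcription there, while CIART, also known as CHRONO, binds BMAL1 and holds down its activity. All 3 genes are themselves driven through E-boxes, so each closes a feedback loop, and the kidney is among the organs with a strong clock of its own. Bhlhe40 also responds to hypoxia and to growth signals.

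Because an E-box is the site at which the 3 proteins act, the promoters are shown with every E-box in capitals. The promoter table of RefSeq (GRCm38.p6) matched 2 of the 3 genes, and the 250 bases before the transcription start are given 5' to 3' on the strand of the gene. The Bhlhe41 stretch lies at chr6:145865421-145865670 on the minus strand, and the Ciart stretch at chr3:95882229-95882478 on the minus strand. The capitals mark CACGTG, the canonical E-box, which reads the same on both strands.
Bhlhe41: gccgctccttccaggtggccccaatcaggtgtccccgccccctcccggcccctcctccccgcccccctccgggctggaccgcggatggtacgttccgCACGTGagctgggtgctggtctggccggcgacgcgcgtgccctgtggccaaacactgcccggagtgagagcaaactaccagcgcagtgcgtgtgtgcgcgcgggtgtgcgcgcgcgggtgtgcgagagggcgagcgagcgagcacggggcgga
Ciart: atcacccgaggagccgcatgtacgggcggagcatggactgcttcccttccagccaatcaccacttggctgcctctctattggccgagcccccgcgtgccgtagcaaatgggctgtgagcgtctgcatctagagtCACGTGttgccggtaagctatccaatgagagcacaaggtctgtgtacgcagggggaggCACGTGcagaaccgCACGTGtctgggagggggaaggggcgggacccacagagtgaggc
Bhlhe41 held 1 E-box, at -153 to -148 from the start, in a stretch with 73.6% G and C. Ciart held 3 E-boxes, at -116 to -111, -58 to -53 and -44 to -39, in a stretch with 62% G and C. The last pair in Ciart was 8 bases apart, and 52 bases separated the first from the second. Of 32851 promoters of this length in the table, 6.02% held at least 1 E-box, 0.429% at least 2 and 0.0609% (20 promoters) at least 3. CACGTT, whose other strand reads AACGTG, was found in 3.85% of all promoters, TTATGNAA, a D-box that PAR bZIP factors such as DBP bind, in 3.07%, and AGGTCA, a core element of ROR and REV-ERB receptor sites, in 14.02%. None of these 3 other motifs, searched on both strands, was in either of the 2 windows.

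**Figure D1:**
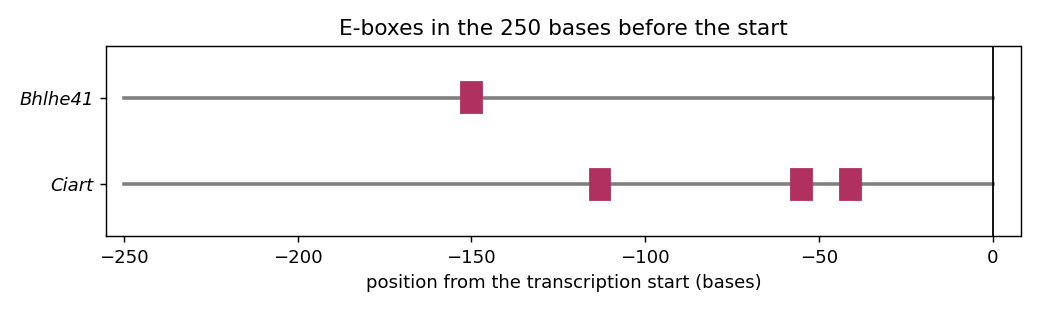
Position of each E-box (squares) in the 250 bases before the start of Bhlhe41 and Ciart, with bases from the transcription start on the horizontal axis. The single E-box of Bhlhe41 lies farther from the start than any of the 3 of Ciart.

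In the annotation (GENCODE vM39, GRCm39), Bhlhe40 (ENSMUSG00000030103) lies at chr6:108636626-108644502 on the plus strand, with 5 transcripts and 6352 exonic bases. Bhlhe41 (ENSMUSG00000030256) lies on the same chromosome at chr6:145803969-145811430 on the minus strand, with 5 transcripts and 7158 exonic bases. Ciart (ENSMUSG00000038550) lies at chr3:95785815-95789991 on the minus strand, with 7 transcripts and 2608 exonic bases. Each overlaps a transcript of the opposite strand over part of its exons, and the strand setting of the counting was not given in the sources used here.

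The libraries held between 15417867 and 23532088 counts on genes, with a median of 18193787.5. Mitochondrial genes took between 3.53% and 23.4% of them, and 4 libraries lay under 10%: Control replicate 2, 10CBD replicates 1 and 3, and 20CBD replicate 3. Markers of the kidney were present in every library, with the proximal tubule receptor Lrp2 at 1035 to 2649 CPM (counts scaled to library size) and the podocyte gene Nphs1 at 18.9 to 29.5 CPM. The summed level of the 2 fat markers Adipoq and Plin1 was 1.91 to 25.04 CPM in the control group, 0.361 to 8.44 CPM in 10CBD and 0.0586 to 4.18 CPM in 20CBD, with each of them at 0 in at least 1 library of 20CBD. Lrp2 was 1891 to 2649 CPM in the control group, 1631 to 2259 CPM in 10CBD and 1035 to 1630 CPM in 20CBD, a log2 fold change of -0.76 at the higher dose with an adjusted p of 0.173 in edgeR. Slc34a1, the other marker of the proximal tubule, had ranges of 3063 to 4070.5, 2642 to 3306 and 2635.5 to 3370 CPM in the 3 groups. Its log2 fold changes were -0.30 at 10 mg and -0.23 at 20 mg (adjusted p = 0.870 and 0.745 in edgeR). Leukocyte markers (Ptprc and Cd3e) summed to 10.2 to 13.2, 9.58 to 13.3 and 7.62 to 13.5 CPM in the 3 groups, adrenal markers (Star and Cyp11b1) to 4.46 to 5.44, 3.57 to 4.88 and 3.61 to 4.98 CPM, with Cyp11b1 at 0 to 0.143 CPM, and blood markers (Hbb-bs and Alas2) to 226 to 521, 166 to 387 and 240 to 561 CPM. The part of these markers in the results below was not tested. In RNA of a whole organ, fewer cells of a type and less RNA per cell cannot be told apart.

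The 3 repressors stood at different levels in control kidneys. Per kilobase of exon, Bhlhe40 was at 7.62 ± 0.81 CPM (SD, n = 4), at percentile 78.1 of 17104 tested genes with a length. Ciart was at 0.874 ± 0.101 CPM per kilobase, at percentile 30.8. Bhlhe41 was at 0.215 ± 0.051 CPM per kilobase, at percentile 9.03. The ranges of the 3 genes over the control mice did not overlap on this scale. Bhlhe40 and Bhlhe41 are close relatives with the same kind of DNA-binding domain, and in the control group the level per kilobase of Bhlhe40 was 37.6 ± 13.1 (SD, n = 4) times that of Bhlhe41. That ratio was 28.7 ± 3.58 in 10CBD and 13.2 ± 2.18 in 20CBD. It ran from 27.8 to 56.3 over the control mice, from 25.8 to 34.0 in 10CBD and from 11.1 to 16.2 in 20CBD, so that the control and 10CBD ranges overlapped and 20CBD lay below both.

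The time of day at killing was not given in the sources used here, and its part in the order of the groups was not tested. Bhlhe41 was higher in every mouse of a higher dose than in every mouse of a lower dose. Its CPM, scaled by TMM (trimmed mean of M-values), in replicates 1 to 4 was 1.93, 1.43, 1.71 and 1.09 in the control group. In 10CBD it was 2.52, 2.31, 2.85 and 2.23 CPM, and in 20CBD it was 4.22, 3.71, 4.68 and 4.46 CPM. The group means were 1.54 ± 0.37, 2.48 ± 0.27 and 4.27 ± 0.42 CPM (SD, n = 4 each), and no group overlapped another. These levels rest on few reads, 20 to 46 counts in a control library, 35 to 63 in 10CBD and 62 to 79 in 20CBD. The coefficient of variation between mice was 23.7%, 11.1% and 9.73% in the 3 groups, where counting error alone would give 18.1%, 14.7% and 11.8%. In both treated groups the observed value lay below that of counting error, which with 4 mice does not show that the mice did not differ.

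On the log2 scale, Bhlhe41 in 20CBD exceeded the control group by 1.46 (SE 0.21, 95% interval 1.01 to 1.91), a fold of 2.75. The difference was 0.68 (SE 0.21, interval 0.22 to 1.14) for 10CBD against the control group and 0.78 (SE 0.21, interval 0.34 to 1.22) for 20CBD against 10CBD. At 20 mg its change ranked 29 from the highest of 17163 genes. A pattern of 3 groups in the order of dose without overlap was shared by 8 of the 17163 genes (0.0466%). These were Bhlhe41, Dbp, Usp2, Cyp2d22, Slc43a1, Map3k6, Gm13559 and A830021M18Rik. Bhlhe41 and Dbp were chosen with earlier results of these data known, and the others were named after their values were seen. Nothing is read from the place of Bhlhe41 among them.

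Ciart had the same order of group means, with more spread between the treated mice. Its CPM in replicates 1 to 4 was 1.93, 2.34, 2.57 and 2.28 in the control group, from 42 to 51 counts. In 10CBD it was 3.05, 3.497, 5.10 and 3.29 CPM, from 53 to 113 counts, and in 20CBD it was 4.51, 4.01, 9.36 and 6.15 CPM, from 67 to 156 counts. Every treated mouse exceeded every control mouse, while the doses overlapped, since replicate 3 of 10CBD exceeded replicates 1 and 2 of 20CBD. The means were 2.28 ± 0.26, 3.73 ± 0.93 and 6.01 ± 2.41 CPM (SD, n = 4 each). The coefficient of variation was 11.5% in the control group, below the 14.6% of counting error, and 24.9% and 40.2% in 10CBD and 20CBD, above the 12.1% and 10.3% that counting error would give.

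The log2 fold change of Ciart was 1.40 (SE 0.27, interval 0.83 to 1.97) for 20CBD against the control group, a fold of 2.63. It was 0.72 (SE 0.27, interval 0.14 to 1.29) for 10CBD against the control group and 0.68 (SE 0.26, interval 0.13 to 1.24) for 20CBD against 10CBD. The highest Ciart value, in replicate 3 of 20CBD, came from the library of that group with a low mitochondrial share (5.54%), and without this library the log2 fold change was 1.10 for 20CBD against the control group and 0.39 for 20CBD against 10CBD. C920021L13Rik, a noncoding RNA of the other strand that shares 250 exonic bases with Ciart, was at 5.11 to 6.40 CPM in the control group, 6.33 to 7.92 CPM in 10CBD and 5.92 to 11.1 CPM in 20CBD. It too was highest in replicate 3 of 20CBD, and its part in the Ciart counts was not tested.

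Bhlhe40 followed neither of the other two. Its CPM in replicates 1 to 4 was 50.4, 46.7, 42.3 and 54.3 in the control group. In 10CBD it was 61.0, 57.1, 65.2 and 67.2 CPM, and in 20CBD it was 45.4, 53.2, 46.1 and 53.1 CPM. All mice of 10CBD lay above all mice of both other groups, and the mice of 20CBD lay within the range of the control mice. The means were 48.4 ± 5.15, 62.7 ± 4.49 and 49.5 ± 4.28 CPM (SD, n = 4 each), with 769 to 1444 counts in a library. The spread between mice (10.6%, 7.16% and 8.66%) exceeded that of counting error (3.18%, 2.92% and 3.45%), so depth was not the limit for this gene. Its log2 fold change was 0.37 (SE 0.11, interval 0.13 to 0.61) at 10 mg and 0.03 (SE 0.11, interval -0.21 to 0.27) at 20 mg, and 20CBD differed from 10CBD by -0.34 (SE 0.11, interval -0.58 to -0.10). The interval at 20 mg spans folds from 0.864 to 1.21. A group of 10CBD above both other groups without overlap was found in 26 of 17163 genes (0.151%). The antisense RNA 0610040F04Rik, which shares 442 exonic bases with Bhlhe40, was at 5.06 to 9.30, 5.75 to 7.32 and 7.0015 to 9.42 CPM in the 3 groups, and Gm43909, antisense to Bhlhe41, had at most 1 count in a library.

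**Figure D2:**
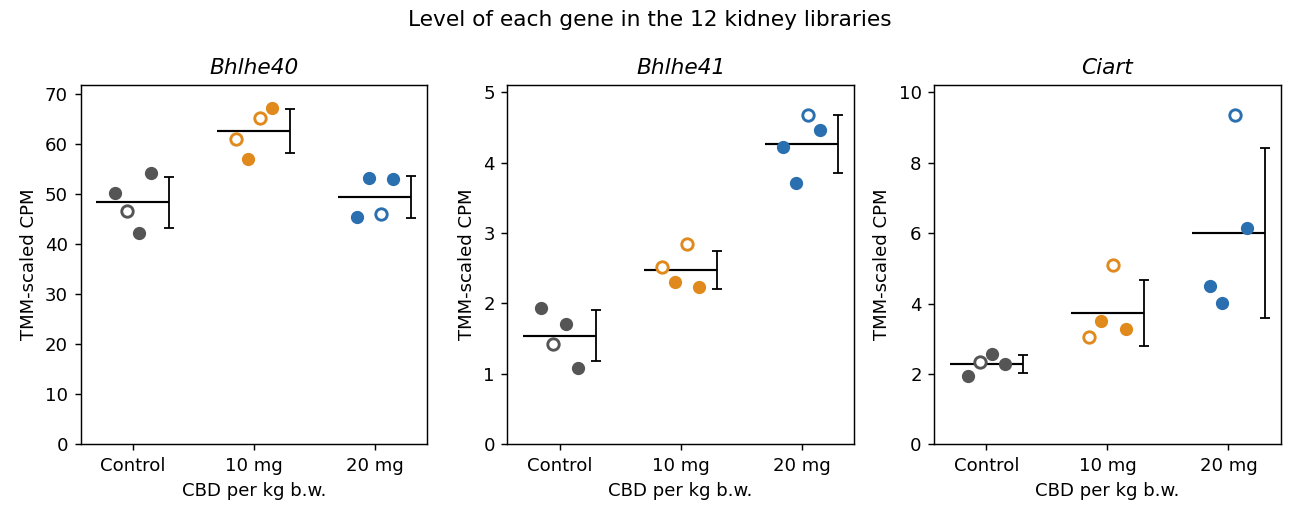
TMM-scaled CPM of each gene (vertical axes from 0) by group, with 1 point per mouse, the mean as a line and the SD as a bar. Open points are the 4 libraries with under 10% mitochondrial counts. The groups of Bhlhe41 lie apart, with means from 1.54 to 4.27 CPM, Ciart has a wide spread in 20CBD (4.01 to 9.36 CPM), and Bhlhe40 is highest in 10CBD.

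The values that chose the members read as follows in the fit over all genes with edgeR's quasi-likelihood test (Benjamini-Hochberg adjusted p under 0.1). At 20 mg, 2 of the 3 were called against the control group, Bhlhe41 (adjusted p = 0.0144) and Ciart (adjusted p = 0.0580), and Bhlhe40 was not (adjusted p = 0.976). Of all 17163 genes, 52 (0.303%) were called there. At 10 mg, 0 of the 3 were called, with adjusted p from 0.796 to 0.812 in edgeR, where 5 genes (0.0291%) were called and 973 had an unadjusted p under 0.05. Between the doses, 0 of the 3 were called (adjusted p = 0.758 for each in edgeR) and 0% of all genes, where 1083 genes had an unadjusted p under 0.05, DESeq2 called 12 and limma-voom 0. All 4 mice above all 4 control mice was found at 10 mg for 3 of the 3 members and 1.55% of genes, and at 20 mg for 2 of the 3 and 2.67% of genes. For 20CBD against 10CBD, all 4 above all 4 held for Bhlhe41 and 1.7% of genes, and all 4 below all 4 for Bhlhe40 and 1.4% of genes. Since the genes were chosen on these comparisons, the counts describe them and nothing is read from their distance to the background. Leaving out any 1 of the 12 libraries kept the call of Bhlhe41 in 12 of 12 fits and that of Ciart in 6 of 12, and Ciart had an adjusted p of 0.122 in edgeR without replicate 3 of 20CBD.

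Within the libraries of similar mitochondrial share, the order of the groups was the same for Bhlhe41. In the 4 libraries under 10% its level was 1.43 CPM in the control group, 2.52 and 2.85 CPM in 10CBD and 4.68 CPM in 20CBD. In the other 8 it was 1.09 to 1.93, 2.23 to 2.31 and 3.71 to 4.46 CPM. Ciart was at 2.34, 3.05 and 5.10, and 9.36 CPM in the first class, and at 1.93 to 2.57, 3.29 to 3.497 and 4.01 to 6.15 CPM in the second. Its doses did not overlap there, but with 2 libraries of 10CBD and 3 of 20CBD this does not show a step between the doses. The share of all genes with such a gap was not computed. Bhlhe40 was highest in 10CBD in both classes, at 61.0 and 65.2 CPM against 46.7 CPM in the control group and 46.1 CPM in 20CBD, and at 57.1 to 67.2 against 42.3 to 54.3 and 45.4 to 53.2 CPM. In the fit without the 4 libraries, the log2 fold changes at 20 mg were 1.37 for Bhlhe41 and 1.12 for Ciart.

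**Figure D3:**
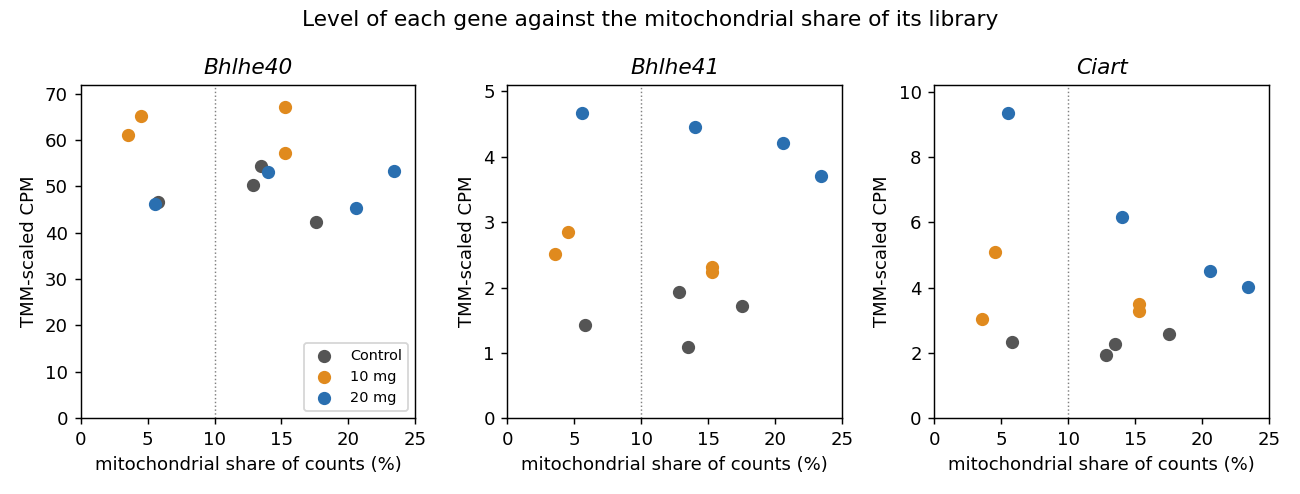
TMM-scaled CPM of each gene against the mitochondrial share of its library in percent, with 1 point per mouse coloured by group and a dotted line at 10%. Bhlhe41 separates the groups on both sides of the line, and the highest Ciart value (9.36 CPM) belongs to the 20CBD library at 5.54%.

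The other parts of the clock that meet these repressors were described by lists that were drawn up with earlier results of these data known. Both doses share the 4 control mice, so their changes are not independent of each other. The time of day at killing was not given, and its part in the changes of these clock genes was not tested. Of 54 listed genes, 50 were tested, and at 10 mg 2 were called higher and 1 lower, at 20 mg 4 higher and 4 lower, and between the doses 0, each by edgeR. The median log2 fold change of all genes tested was 0.012 at 10 mg and 0.015 at 20 mg.

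Among the 3 activators, Npas2 fell at both doses and Bmal1 at 20 mg, and Clock was not called, with a list median of -1.02 at 10 mg and -1.21 at 20 mg. Bmal1, the partner of CLOCK that CIART binds, went from 22.0 ± 4.03 CPM to 10.8 ± 1.18 in 10CBD and 9.53 ± 2.87 in 20CBD, with log2 fold changes of -1.02 (SE 0.20, adjusted p = 0.229 in edgeR) and -1.21 (SE 0.20, adjusted p = 0.0340). Npas2, which can stand in for CLOCK, went from 24.4 ± 4.00 CPM to 9.13 ± 1.83 and 8.97 ± 3.25, with log2 fold changes of -1.42 (SE 0.23, adjusted p = 0.0792 in edgeR) and -1.44 (SE 0.23, adjusted p = 0.0258). Over single mice, Bmal1 ran from 19.7 to 28.0 CPM in the control group, from 9.17 to 11.9 CPM in 10CBD and from 5.76 to 12.7 CPM in 20CBD, so its doses overlapped as those of Ciart did, on the other side of the control mice.

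Of the 7 other repressors driven by E-boxes (Per1, Per2, Per3, Cry1, Cry2, Nr1d1 and Nr1d2), 1 was called higher at 10 mg, and 3 higher and 1 lower at 20 mg, with list medians of 0.47 and 0.75. Per3, a period gene, rose from 10.2 ± 1.73 CPM to 21.5 ± 2.26 and 26.7 ± 3.68, log2 fold changes of 1.08 (SE 0.15) and 1.39 (SE 0.15). Nr1d1, the receptor REV-ERB alpha that represses Bmal1, rose at 20 mg by 1.33 (SE 0.24), and Nr1d2, its relative REV-ERB beta, by 0.80 (SE 0.14). At 10 mg their changes were 0.80 (SE 0.24) and 0.56 (SE 0.14), not called by edgeR (adjusted p = 0.796 and 0.624). From 10 mg to 20 mg they differed by 0.53 (SE 0.24) and 0.24 (SE 0.14), also not called. Cry1, which represses CLOCK-BMAL1 together with the period proteins, fell at 20 mg by 1.32 (SE 0.28), from 6.69 ± 2.19 to 2.68 ± 0.52 CPM. At 10 mg Cry1 was at 3.07 ± 1.01 CPM, a log2 fold change of -1.12 (SE 0.27, adjusted p = 0.596 in edgeR). Between the doses its difference was -0.20 (SE 0.28), not called.

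In the list of Dbp, Tef, Hlf and Nfil3, whose products compete for D-boxes, Dbp rose at both doses, from 2.36 ± 0.70 CPM to 15.7 ± 2.81 and 24.0 ± 2.22, log2 fold changes of 2.75 (SE 0.21) and 3.35 (SE 0.21). Nfil3, which represses at the sites that DBP activates, fell at 20 mg by 1.30 (SE 0.19), from 9.18 ± 1.47 to 3.72 ± 0.53 CPM. At 10 mg Nfil3 was at 4.65 ± 0.96 CPM, a log2 fold change of -0.98 (SE 0.19, adjusted p = 0.202 in edgeR). Between the doses its difference was -0.33 (SE 0.19), not called. The changes at 20 mg of Bhlhe41 (1.46) and Ciart (1.40) lay near those of Per3 (1.39) and Nr1d1 (1.33), with overlapping intervals, and below that of Dbp. Among the promoters of these 3 lists in the table, those of Cry1, Per1 and Tef held CACGTG in the 250 bases before the start, 2 of 6 among the repressors, 1 of 4 in the list of Dbp and 0 of 2 among the activators. In lists described below, it was in 2 of 4 corepressor partners, 1 of 4 immediate early genes and 1 of 8 hypoxia-induced genes. It was in 0 of 2 genes of clock protein turnover and 0 of 5 other bHLH-Orange genes. The share over all promoters was 6.02%, and with so few promoters no difference between the lists is read from these counts.

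**Figure D4:**
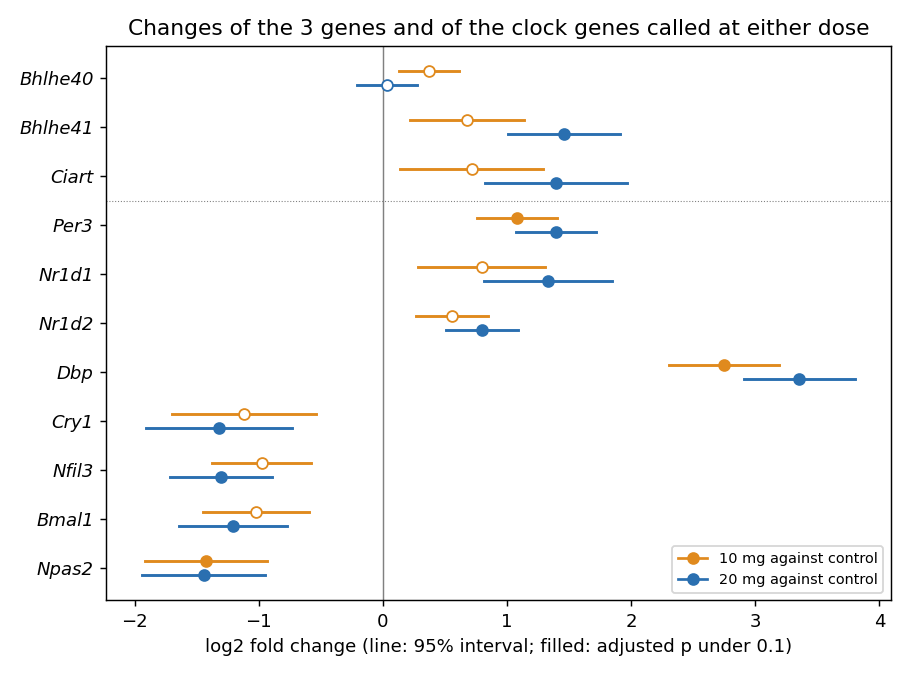
log2 fold changes against the control group at 10 mg and 20 mg (horizontal axis) with 95% intervals, for Bhlhe40, Bhlhe41 and Ciart above the dotted line and for the listed clock genes called at either dose below it. Filled points have an adjusted p under 0.1, and Bhlhe40 is near 0 at 20 mg (0.03) while Bhlhe41 (1.46) and Ciart (1.40) lie beside Per3 (1.39) and Nr1d1 (1.33).

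The remaining 6 lists had 0 genes called by edgeR in any comparison. Of 5 genes for the turnover of clock proteins, the casein kinase gene Csnk1e had the largest difference at 20 mg, 0.51 (SE 0.24). Of 10 other genes of the bHLH-Orange family, which holds Bhlhe40 and Bhlhe41, 6 were tested, with a list median of 0.21 at 20 mg, and the largest difference was that of Hes2 (-1.44, SE 0.41, adjusted p = 0.312 in edgeR) at 2 to 20 counts per library. Of 7 corepressor partners, the glucocorticoid receptor gene Nr3c1 stood at -0.34 (SE 0.13).

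Bhlhe40 is known to respond to hypoxia and to immediate early signals, and both lists were therefore measured beside it. The part of these signals in the level of Bhlhe40 was not tested. The median log2 fold change of the 9 hypoxia-induced genes was 0.0047 at 10 mg and 0.0037 at 20 mg, and the largest difference at 20 mg was that of the carbonic anhydrase gene Car9 (0.42, SE 0.15, adjusted p = 0.443 in edgeR). The median of the 6 immediate early genes was -0.40 at 10 mg and 0.09 at 20 mg. At 10 mg the list ran from -1.09 to 0.08 with 3 genes above 0, so its median stands for no common change. Junb, a subunit of AP-1, stood at 0.57 (SE 0.27, adjusted p = 0.590 in edgeR) at 20 mg.

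The spread between mice of the same group is apart from the differences between group means by which the genes were chosen, although its size enters any call of such a difference. It was examined in log2 CPM with the group means removed (n = 12 libraries, 9 relations, two-sided exact permutation within groups over 13824 arrangements). Bhlhe41 and Ciart had r = 0.342 (permutation p = 0.163, adjusted 0.732) and rho = 0.441 (permutation p = 0.144, adjusted 0.358). Without the 2 libraries farthest from the median of Bhlhe41 their r was 0.768, and without replicate 1 of the control group it was 0.589 (adjusted permutation p = 0.0521). Bhlhe40 and Bhlhe41 had r = -0.378 (permutation p = 0.363) and rho = -0.378 (permutation p = 0.306), with r = 0.0486 without the 2 farthest libraries, so the relation rests on those libraries. Bhlhe40 and Ciart had r = -0.202 (permutation p = 0.554) and rho = -0.238 (permutation p = 0.466), and r was -0.176 without the 2 farthest. None of the 3 pairs passed an adjusted p of 0.1 over the 12 libraries. In the 8 treated libraries alone, Bhlhe41 and Ciart had r = 0.810 (permutation p = 0.0191, adjusted 0.0859), and in the 8 libraries with a higher mitochondrial share they had r = 0.0875 (permutation p = 0.903).

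Ciart and Bmal1 had r = -0.415 (permutation p = 0.407, adjusted 0.733) and rho = -0.546 (permutation p = 0.125, adjusted 0.358). For this pair single libraries moved the value both ways. Without replicate 3 of 20CBD, r was -0.825 (permutation p = 0.00608, adjusted 0.0547) and rho -0.900 (adjusted permutation p = 0.0495). Without replicate 2 of 20CBD, r was -0.187 (permutation p = 0.769, adjusted 0.865). The adjustment covers the 9 relations and not the choice of the library left out. In the 8 libraries with a higher mitochondrial share r was -0.971, with an adjusted permutation p of 0.125 among 72 arrangements. Its unadjusted permutation p of 0.0139 is the lowest that 72 arrangements allow, so this relation alone could not have passed 0.1 there. The 4 other libraries were too few for a value. Bhlhe40 and Bmal1 had r = -0.0378 (permutation p = 0.921) and rho = 0.0979 (permutation p = 0.789), and r = -0.0805 without the 2 farthest. Bhlhe41 and Bmal1 had r = -0.0445 (permutation p = 0.875) and rho = -0.231 (permutation p = 0.493), and r = -0.556 without the 2 farthest.

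Against the mitochondrial share, Ciart had r = -0.648 (permutation p = 0.0765, adjusted 0.688) and rho = -0.525 (permutation p = 0.159, adjusted 0.358), and r = -0.288 without the 2 farthest libraries. In the 8 libraries with a higher share it was -0.525 (permutation p = 0.486), and with the replicate number as a block it was -0.821 over the 12 libraries (permutation p = 0.00817, adjusted 0.0736). The p with the block is not exact and can be too small, since values were shuffled within groups without keeping the block. Bhlhe41 had r = -0.332 (permutation p = 0.266) and rho = -0.483 (permutation p = 0.124), r = -0.524 without the 2 farthest and r = -0.160 in the 8 libraries with a higher share, while in the 8 treated libraries r was -0.868 (permutation p = 0.0191, adjusted 0.0859). Bhlhe40 had r = 0.0478 (permutation p = 0.882) and rho = 0.133 (permutation p = 0.699), r = 0.211 without the 2 farthest and r = -0.402 in the 8 libraries with a higher share. Over the 9 relations in all 12 libraries and without the block, the smallest adjusted p was 0.688 for r and 0.358 for rho, so none passed there.

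The genes with the pattern most like each member were found by Pearson r of log2 CPM over the 12 libraries, which share groups and depth, and are given without a test. For Bhlhe40 they were Amotl2 (r = 0.915), Klhdc7a (0.858), Cep152 (0.848), Zmynd15 (0.848) and Arhgef18 (0.838). For Bhlhe41 they were Rgcc (r = 0.906), Snhg12 (0.894), Cyp2a5 (0.894), Cyp2d22 (0.889) and Taf1d (0.885). For Ciart they were Cyp2a5 (r = 0.954), Cyp2d9 (0.953), Taf1d (0.935), Usp2 (0.933) and Dtwd2 (0.904). Cyp2a5 and Taf1d were thus near both Bhlhe41 and Ciart, and no gene of the 5 nearest to Bhlhe40 was near the other two. Once group means were removed, 1, 0 and 1 of the 10 nearest genes of Bhlhe40, Bhlhe41 and Ciart were still among the 10 nearest.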

How the data were processed

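Poly(A) RNA of 12 mouse kidneys was sequenced as paired reads of 150 bases. Per the labels and methods, the authors trimmed the reads, mapped them with STAR 2.7.5c to GRCm39 and counted them per Ensembl gene with HTSeq 1.99.2, so the deposited values are whole counts without normalization. The annotation release, the strand setting, any use of molecular identifiers and the time of day at killing were not given in the sources used here. The 5 summary lines of each file were left out, and 99.02% of gene identifiers matched GENCODE vM39. The 3 genes and all lists were chosen with earlier results of these data known. Genes were filtered with filterByExpr, normalized by TMM and fitted with edgeR 4.0.16 (R 4.3.3, quasi-likelihood, 12 libraries, a mean per group), with Benjamini-Hochberg adjustment over 17163 genes and a threshold of 0.1. DESeq2 1.42.0, limma-voom (limma 3.58.1), sva 3.50.0 and the other settings named in the closing section were alternatives. Named genes were the 3 members, list genes called in any comparison, the list gene with the largest absolute change at 20 mg where none was called, and the 5 genes most like each member. The values of 1 list are not reported here. log2 CPM used a prior count of 2. The fit was tested on simulated data. No 2 libraries held identical counts. Replicates are separate mice, and the 95% intervals of fold changes come from the edgeR fit and include the spread between mice. The coefficients of variation given for counting cover counting error only.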

Additional observations from a re-analysis of the deposited data

Results flagged for a closer look

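Of 51 groups of 4 mice examined for a mouse far from the others, 4 held one by Dixon's criterion, where chance gives about 5%, and none of the 4 was a group of Bhlhe40, Bhlhe41 or Ciart. The highest control mouse for Bmal1 was at 28.0 CPM. The lowest mouse of 20CBD for Nr1d1 was at 40.1 CPM. The highest mouse of 20CBD for Csnk1e was at 29.9 CPM, and the highest mouse of 10CBD for Junb was at 9.02 CPM. The values of Nr1d1 and Csnk1e came from the same library, replicate 3 of 20CBD. It had a low mitochondrial share (5.54%) and also held the highest Ciart value. The part of this library in the changes of Nr1d1 and Csnk1e was not tested.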

How the results depend on the processing

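Bhlhe41 and Ciart kept their direction at both doses in all 14 alternatives besides leaving out 1 library, with log2 fold changes at 20 mg of 1.37 to 1.49 and 1.12 to 1.48. Ciart was not called at an adjusted p under 0.05 (log2 fold change 1.40, adjusted p = 0.058), which left 1 member called. The cause of the following moves was not tested. Genes called at 10 mg (5) became 40 with DESeq2, 331 without a filter on low counts, 12 with low mitochondrial share as a factor, 15 with the share as a covariate, 13 with 1 surrogate variable, 26 without the 4 low-mitochondrial libraries and 3 at an adjusted p under 0.05. List genes called there (3) became 8, 11, 7, 7, 7 and 6 in the first 6 of these. Genes called at 20 mg (52) became 182, 416, 293, 1386, 406, 107 and 23 in the same order, and list genes (8) became 14, 21 and 14 with the factor, the covariate and the surrogate variable. Between the doses, the 0 genes called became 12 with DESeq2, 256 without the filter, 62 with the covariate and 6 with the surrogate variable, and the 0 list genes became 3 without the filter. Per kilobase of the longest transcript, control levels were 10.3 CPM for Bhlhe40 and 1.15 CPM for Ciart. With group means removed, 1, 0 and 1 of the 10 nearest genes of Bhlhe40, Bhlhe41 and Ciart were shared. Without the low-mitochondrial libraries, r was 0.0508 for Bhlhe40 and Bmal1, 0.00305 for Bhlhe41 and Bmal1 and -0.402 for Bhlhe40 and the mitochondrial share.

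The labels do not say whether mice with the same replicate number were handled together. Deviations of same-numbered libraries correlated at -0.330 to 0.317, over 0.1 in 4 of 12 pairs, and 3 of 12 libraries correlated best with their own number. These values cannot decide whether the numbers pair the mice, since no value expected for unpaired mice was computed. With the replicate block, 27 genes were called at 20 mg, Bhlhe41 (1.48, adjusted p = 0.0330 in edgeR) and Ciart (1.34, adjusted p = 0.0431 in edgeR) included. There r within groups was 0.0406 for Bhlhe40 and Bhlhe41, 0.313 for Bhlhe40 and Bmal1 and -0.175 for Bhlhe40 and the mitochondrial share. For Ciart and the mitochondrial share r was -0.821, with an adjusted permutation p of 0.0736, against 0.688 without the block. The p with the block is not exact and can be too small, since values were shuffled within groups without keeping the block.

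Leaving out 1 library at a time gave 2 to 8 genes called at 10 mg, with 2 each without control replicate 1 and 10CBD replicate 3 and 8 without 10CBD replicate 2, and 1 to 4 list genes, with 1 each without control replicates 1 and 4 and 10CBD replicate 3. At 20 mg it gave 14 to 54 genes, with 14 each without control replicates 1, 2 and 4 and 19 to 32 without control replicate 3 and 20CBD replicates 2, 3 and 4, and 1 to 2 members and 4 to 8 list genes, with 4 and 5 without control replicates 1 and 4. At 20 mg the log2 fold change was 1.33 to 1.59 for Bhlhe41, 1.10 to 1.55 for Ciart, which lost its call without each control mouse and without replicates 3 and 4 of 20CBD (adjusted p up to 0.209 in edgeR), and -0.031 to 0.089 for Bhlhe40, below 0 without control replicate 3 and without 20CBD replicates 2 and 4. Within groups, r was -0.366 to 0.0106 for Bhlhe40 and Ciart, -0.277 to 0.362 for Bhlhe40 and Bmal1, -0.395 to 0.170 for Bhlhe41 and Bmal1, and -0.165 to 0.276 for Bhlhe40 and the mitochondrial share. It was -0.825 to -0.187 for Ciart and Bmal1 and 0.217 to 0.589 for Bhlhe41 and Ciart. For Bhlhe41 and Ciart, at 20 to 156 counts a library, depth limits the precision of a single mouse.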
